A study of Mus musculus with 30 samples.

Results

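*Adamdec1* (ADAM-like decysin 1, ENSMUSG00000022057.8) was followed through 10 populations of mesenchymal stromal cells sorted from mouse small intestine and colon. It is 1 of the 32386 genes to which the deposited transcript values could be summed, and it was chosen from its own level in these libraries, which was high in fibroblasts (FB) and close to absent in pericytes. That contrast, and the level in smooth muscle cells (SMC) beside it, is therefore given as a description with no test. Tests were made among FB populations, a comparison that the choice of the gene did not use.

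*Adamdec1* encodes a secreted metalloprotease of the ADAM family, which otherwise consists mostly of membrane-anchored proteases that shed ligands, receptors and adhesion molecules from the cell surface. It lacks the membrane anchor of its relatives, and in its active site an aspartate takes the place of a histidine that holds the zinc ion in the other family members. The gene is known for its high expression in the gut, where macrophages and lamina propria fibroblasts have both been described as sources.

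RNA-seq was available for 30 libraries, 3 of each population, from untreated C57BL6/Nrj mice aged 8 to 10 weeks. Pericytes, PDGFRα hi FB and Fgfr2+ FB came from both tissues, SMC and CD34+ FB from the small intestine, and CD90+ FB and CD81+ FB from the colon. The sample labels speak of 3 individual mice and the study's figure legends of 3 independent experiments, and its discussion has subsets of both tissues come from the same animals. None of these says which libraries share a mouse, and the tests treat the libraries as independent. RNA was amplified as whole transcriptome before sequencing, and the authors assigned reads to transcripts with kallisto, so that an estimated count is the number of reads attributed to a transcript.

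Cells that were dead or carried lineage, CD31, BP3, EpCAM or high NCAM staining had been gated out before the sorts. Pericytes were PDGFRα-negative, ESAM-1-positive and negative for podoplanin (PDPN), and SMC differed from them in carrying PDPN. FB were taken from ESAM-1-negative cells. In the small intestine PDGFRα hi FB and Fgfr2+ FB were both CD34-negative, with high and intermediate PDGFRα, and CD34+ FB, a mixture of Igfbp5+ and CD81+ cells, had intermediate PDGFRα. In the colon PDGFRα hi FB were PDPN-positive and CD34-negative, and the CD34-positive cells were divided by PDPN and CD90 into CD90+ FB (PDPN high, CD90-positive), Fgfr2+ FB (PDPN high, CD90-negative) and CD81+ FB (PDPN intermediate, CD90-negative). Colonic SMC were not analysed here.

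The estimated counts of a library summed to between 2245052 and 19096945, with a median of 9601683. The smallest library was replicate 3 of small intestinal Fgfr2+ FB, in which *Adamdec1* still had an estimated count of 46402. In the library with the fewest *Adamdec1* reads, replicate 2 of colonic pericytes, the gene had a count of 146, so that its low levels also rested on counts well above 0. To compare a gene between populations, its counts were brought to the same library total with TMM normalisation over the 30 libraries (CPM). Levels of different genes are compared per length, as TPM, in which counts are also divided by transcript length.

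Some libraries stood apart. Replicate 3 of small intestinal SMC had 17.43% of its counts on mitochondrial genes, against 4.51% and 5.87% in the other SMC libraries. Over 9756 genes, replicate 1 of colonic CD81+ FB correlated better with a colonic CD90+ FB library (Pearson r = 0.776) than with either library of its own population (at most 0.756), and replicate 3 better with a small intestinal CD34+ FB library (0.848) than with its own (0.821). The same held by smaller margins for replicates 1 and 2 of colonic Fgfr2+ FB, which were closest to CD90+ FB libraries (0.840 and 0.905, against 0.823 and 0.897), and for replicate 3 of small intestinal pericytes, closest to a colonic pericyte library (0.716 against 0.704). These correlations are across genes, which are not independent replicates. For *Adamdec1* itself, replicate 1 of CD81+ FB and replicate 2 of colonic CD90+ FB lay far from the others of their population, and values that rest on them are given with and without them.

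*Adamdec1* lies on chromosome 14, from 68563380 to 68582095 on the minus strand of GRCm38, as annotated in GENCODE M21. It is a protein-coding gene with 1 annotated transcript of 14 exons, and the deposited tables held that 1 transcript in an earlier version, 2425 bases long against 2442 in the annotation. Its level and the level of the gene are therefore the same measurement, and no difference in transcript use between populations could be tested. None of the 2412 stretches of 31 bases in the annotated version occurred in the transcripts of another gene, and 0 other gene models overlapped it in the annotation, so that at this length the annotated version shared no sequence with its relatives. The sequence of the deposited version was not at hand and was not checked.

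*Adamdec1* was highest in small intestinal Fgfr2+ FB. The 3 libraries had 22326, 19399 and 17051 CPM, a mean of 19592 ± 2643 (SD, n = 3), and the gene took 2.09% ± 0.0479 (SD, n = 3) of all estimated counts of these libraries. No gene had a higher mean CPM in this population: *Adamdec1* ranked first in replicates 1 and 3 and was second in replicate 2, behind *Lars2*, which encodes a mitochondrial leucyl-tRNA synthetase and had 21940 CPM there. Per length, *Adamdec1* reached 10607, 10466 and 12334 TPM and ranked 3 in each library, below the predicted genes *Gm29013* and *Gm20594*. These 3 genes above it were named after their values had been seen. Transcripts that could not be summed to a gene were not ranked, and 1 such transcript held 27.8%, 32.0% and 19.7% of TPM in these libraries. Without the small replicate 3 the mean was 20863 CPM.

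SMC of the small intestine came next. They had 9670, 9981 and 12641 CPM of *Adamdec1* (10764 ± 1633, SD, n = 3), and the gene ranked 4, 4 and 10 among all genes. Replicate 3, the library with the large mitochondrial share, was the highest after TMM normalisation, but it was the lowest of the 3 without TMM (8180 CPM, against 10436 and 10777) and per length. Without it the mean was 9825 CPM. After TMM normalisation every SMC library had less *Adamdec1* than every small intestinal Fgfr2+ FB library and more than any other library outside that population, whereas without TMM replicate 3 lay below replicate 1 of colonic Fgfr2+ FB (9324 CPM) and replicate 2 of colonic CD90+ FB (8589 CPM).

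Colonic Fgfr2+ FB followed with 8635, 7042 and 8098 CPM (7925 ± 810, SD, n = 3), where *Adamdec1* ranked 5, 5 and 9. The libraries of this population lay below all SMC libraries and above all libraries of small intestinal CD34+ FB, which had 4963, 6124 and 5507 CPM (5532 ± 581, SD, n = 3; ranks 13, 13 and 12). PDGFRα hi FB were close to each other in both tissues. They had 4975, 6176 and 4681 CPM of *Adamdec1* in the colon (5277 ± 792, SD, n = 3; ranks 9, 4 and 10) and 4445, 5048 and 4753 CPM in the small intestine (4748 ± 302, SD, n = 3; ranks 13, 7 and 10). Small intestinal CD34+ FB and both PDGFRα hi FB populations overlapped, so their order was not larger than their spread.

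The 2 remaining colonic FB populations varied most. CD90+ FB had 2742, 8102 and 3237 CPM of *Adamdec1* (4694 ± 2962, SD, n = 3; ranks 18, 6 and 16), and replicate 2 was 2.95 times as high as replicate 1. Without replicate 2 the mean was 2990 CPM. The 3 libraries of CD90+ FB spanned the range of both PDGFRα hi FB populations and could not be placed above or below them.

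Colonic CD81+ FB had 2331, 298 and 101 CPM of *Adamdec1*, a mean of 910 ± 1234 (SD, n = 3), with ranks of 47, 599 and 1869. Replicate 1 was 7.83 times as high as replicate 2 and 23.1 times as high as replicate 3, and without replicate 1 the mean was 199 CPM. All 3 libraries had less *Adamdec1* than any library of the other FB populations. The mean therefore describes none of the 3 libraries well.

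Pericytes had the lowest levels. In the small intestine they had 97.7, 45.7 and 106 CPM of *Adamdec1* (83.1 ± 32.6, SD, n = 3; ranks 2618, 4178 and 1808), and in the colon 35.6, 17.9 and 15.4 CPM (23.0 ± 11, SD, n = 3; ranks 4842, 6761 and 7345). Small intestinal pericyte libraries lay above all 3 colonic pericyte libraries and overlapped with colonic CD81+ FB, whose replicate 3 was below the highest small intestinal pericyte library. Apart from that 1 library, the other 20 of 21 FB libraries were above all 6 pericyte libraries.

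In order of the mean, *Adamdec1* thus ran from small intestinal Fgfr2+ FB over SMC, colonic Fgfr2+ FB, small intestinal CD34+ FB, colonic and small intestinal PDGFRα hi FB, colonic CD90+ FB and CD81+ FB to small intestinal and then colonic pericytes. Of the neighbours in this order, places 4 and 5, 5 and 6, and 6 and 7 overlapped, as did colonic CD81+ FB and small intestinal pericytes. The highest FB mean was 2.47 times the second and 21.5 times the lowest, that of colonic CD81+ FB (98.3 times without its replicate 1). The gene was among the 50 most abundant by CPM in 19 of 21 FB libraries, the exceptions being replicates 2 and 3 of colonic CD81+ FB. Per length the first 3 and the last 3 places were the same, but SMC (4150, 5156 and 3241 TPM) overlapped with colonic Fgfr2+ FB (5075, 3491 and 3364 TPM), small intestinal CD34+ FB moved from place 4 to place 7, and the pericytes of both tissues overlapped. TPM has the same total in each library, so a transcript with a large share lowers the TPM of all others. A single transcript held 55.5%, 55.9% and 53.8% of TPM in the CD34+ FB libraries, more than in any other library. The order by TPM therefore does not compare populations on length alone, and the part of this share in the move was not tested.

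**Figure D1:**
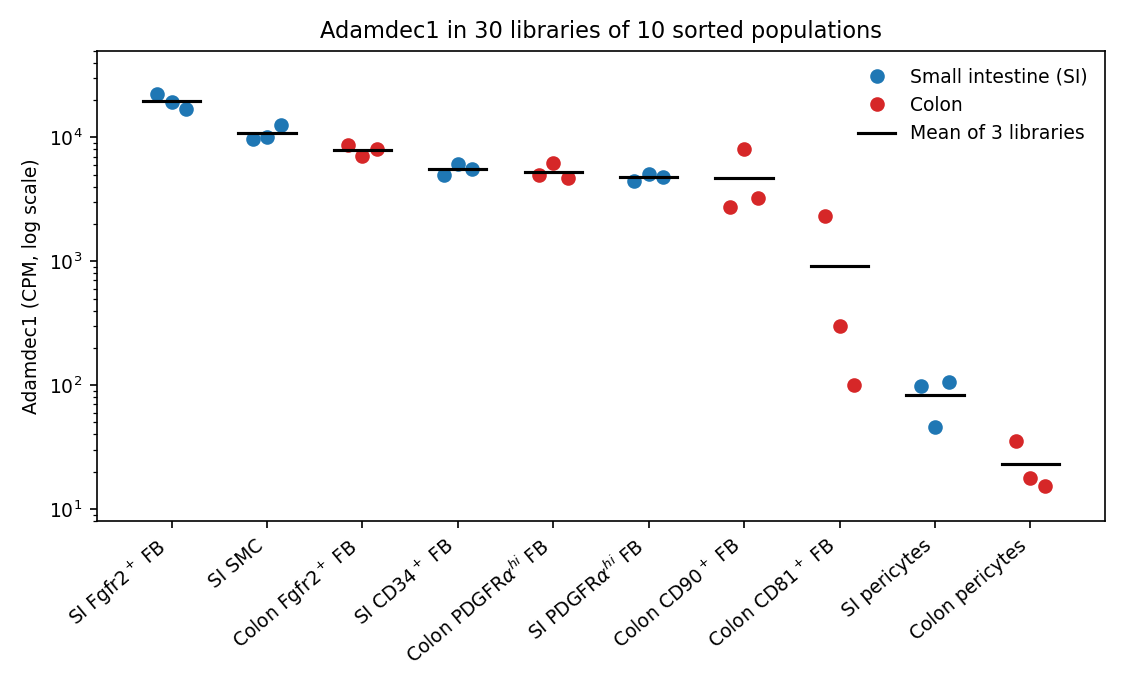
*Adamdec1* in each of the 30 libraries, in CPM on a log axis, by sorted population in order of the mean; points are libraries, coloured by tissue, and bars are means of 3. Small intestinal Fgfr2+ FB lie between 17051 and 22326 CPM and colonic pericytes between 15.4 and 35.6 CPM, while the 3 libraries of colonic CD81+ FB spread from 101 to 2331 CPM.

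The contrast between FB and pericytes was set beside 9 general fibroblast markers (*Pdgfra*, *Dpt*, *Dcn*, *Lum*, *Col1a1*, *Col1a2*, *Col3a1*, *Mmp2* and *Pdpn*), each as a percentage of the mean over the FB populations of the same tissue. This contrast chose the gene and supports nothing further. In colonic pericytes *Adamdec1* was at 0.489% of the FB mean, so that FB were 205 times as high (197 times without replicate 1 of CD81+ FB), and the 9 markers were at 0.419% to 9.01% with a median of 3.45%. *Dpt* and *Lum*, which encode matrix proteins of fibroblasts, were the 2 markers that were lower still than *Adamdec1*.

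In small intestinal pericytes *Adamdec1* was at 0.834% of the FB mean (FB 120 times as high) and the markers at 0.338% to 19.9%, with a median of 2.67% and 4 of the 9 below *Adamdec1*. The markers least reduced there were *Col3a1*, a fibrillar collagen (19.9%), and *Mmp2*, a matrix metalloprotease (14.9%). *Adamdec1* was thus closer to *Pdgfra* (0.398%) and *Lum* (0.605%) than to the collagens. In bulk libraries such as these, fewer cells of a type and less RNA per cell cannot be told apart.

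The pericyte libraries carried their defining markers: all 10 pericyte genes were at 1 CPM or more in each, summing to 52559, 34951 and 45107 CPM in small intestine and to 39152, 54812 and 35422 CPM in colon, led by *Rgs5*, a regulator of G protein signalling. The 9 fibroblast markers summed to 4729, 3901 and 3332 CPM in small intestinal pericytes, with *Pdpn* at 0 in replicate 3, and to 2249, 2572 and 2671 CPM in colonic ones. *Adamdec1* and the sum of fibroblast markers were thus both lower in colonic than in small intestinal pericytes, without overlap. The part of FB in the pericyte level of *Adamdec1* was not tested.

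SMC differed from pericytes in this respect. *Adamdec1* in SMC was at 108% of the mean of the small intestinal FB populations (98.7% without SMC replicate 3), whereas all 9 fibroblast markers were lower there, at 1.07% to 36.5% with a median of 21.2%. *Pdgfra*, the receptor used to sort FB, was at 1.07% and *Dpt* at 4.62% of the FB mean. *Fgfr2*, which marks the FB population richest in *Adamdec1*, was at 49.9%, with 454, 348 and 216 CPM in the 3 SMC libraries. The FB mean pools unlike populations. By mean CPM of *Adamdec1* and of the 9 markers summed, SMC had 10764 and 9962 and Fgfr2+ FB 19592 and 19467. CD34+ FB had 5532 and 73589, and PDGFRα hi FB 4748 and 20597. Against Fgfr2+ FB alone, SMC were thus lower both in *Adamdec1* and in the marker sum.

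**Figure D2:**
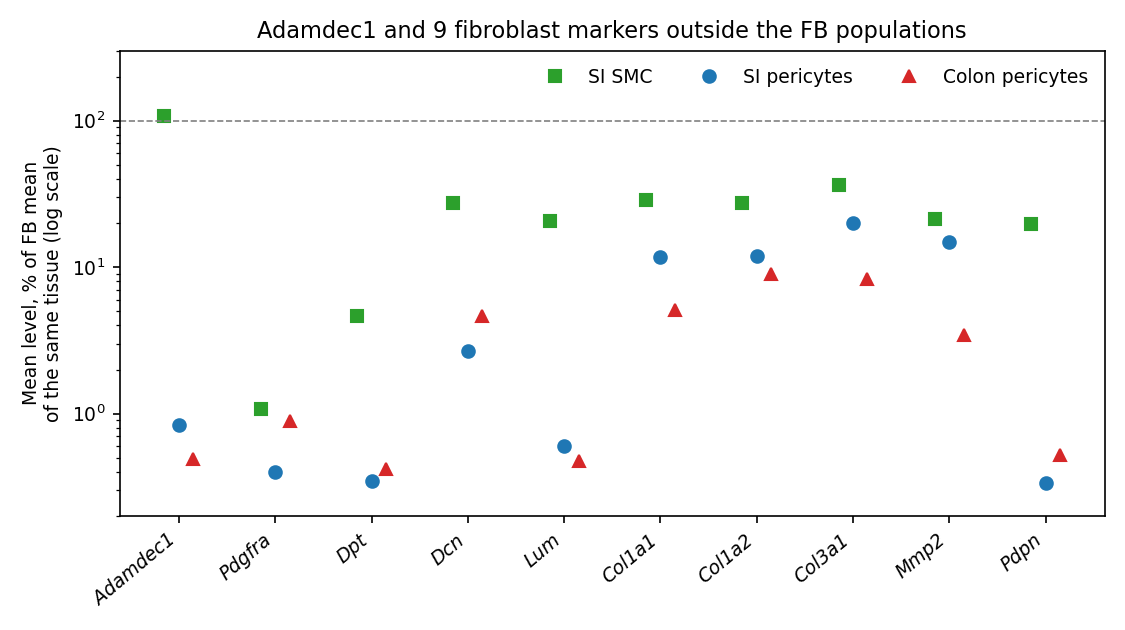
Mean level of *Adamdec1* and of 9 fibroblast markers in small intestinal SMC, small intestinal pericytes and colonic pericytes, as a percentage of the mean of the FB populations of the same tissue (log axis; the dashed line is 100%). In SMC *Adamdec1* stands at 108% and the 9 markers at no more than 36.5%, and in both pericyte populations it is under 1%. The FB mean pools unlike populations, and SMC are below small intestinal Fgfr2+ FB both in *Adamdec1* and in the marker sum.

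The cells behind the SMC value were described by the fixed marker lists. All 9 smooth muscle genes were present, with summed levels of 23581, 19797 and 23764 CPM and *Myh11*, the smooth muscle myosin heavy chain, as the most abundant. The 9 fibroblast markers summed to 8614, 7938 and 13333 CPM in the same libraries, led by *Col3a1* or *Col1a1*, and none of them was at 0. The 10 pericyte genes summed to 4739, 4356 and 8253 CPM, led by *Rgs5*, with *Cox4i2*, *Ndufa4l2* and *Higd1b* at 0 in replicates 2 and 3.

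SMC libraries therefore held smooth muscle transcripts at the highest level of the 10 populations together with fibroblast transcripts below the level of any FB library. In CPM after TMM, replicate 3 had the highest value of *Adamdec1* and the highest sums of fibroblast, pericyte and smooth muscle genes, and 5 endothelial genes, led by *Pecam1*, summed to 191 CPM there against 42.4 and 44.3 CPM, with *Cldn5* at 0 in all 3. The part of FB in the SMC value of *Adamdec1* was not tested.

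Macrophages, the other known source of *Adamdec1*, left few transcripts in these libraries. Their 12 genes (*Ptprc*, *Csf1r*, *Adgre1*, *Cd68*, *C1qa*, *C1qb*, *C1qc*, *Lyz2*, *Fcgr1*, *Mrc1*, *Cx3cr1* and *Itgam*) summed to between 17.6 and 235 CPM over the 30 libraries, with a median of 44.6, and *Cd68* was the most abundant. In small intestinal Fgfr2+ FB, where *Adamdec1* was highest, they summed to 48.7, 17.6 and 78.3 CPM, and *Adgre1*, *C1qa*, *C1qc* and *Mrc1* were at 0 in all 3 libraries. The highest mean sum was in small intestinal pericytes (235, 105 and 114 CPM), which had little *Adamdec1*. Among the 7 FB populations, however, the mean sum was highest in colonic Fgfr2+ FB (58.9 ± 5.49 CPM, SD, n = 3) and in small intestinal Fgfr2+ FB (48.2 ± 30.3 CPM), the 2 with the most *Adamdec1*, and lowest in colonic CD81+ FB (29.1 ± 10.1 CPM), which had the least. Of the 9 macrophage genes tested between CD81+ FB and colonic Fgfr2+ FB, edgeR's quasi-likelihood test with Benjamini-Hochberg adjustment called 1, *C1qc*, lower in CD81+ FB, beside 2.19% of all genes. Between the tissues the same edgeR quasi-likelihood test with Benjamini-Hochberg adjustment called 1 of the 9 macrophage genes tested in Fgfr2+ FB, beside 3.09% of all genes. This was *C1qc*, lower in the small intestine, at 0 in all 3 small intestinal libraries and at 23.7, 15.5 and 7.26 CPM in the colonic ones. The median log2 fold change of the 9 was -0.92. *Cd68* went the other way, with a mean of 23.4 CPM in the small intestine, where no gene of the list had a mean above 15.5 CPM in the colon. The part of macrophages in the *Adamdec1* level of FB was not tested.

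Markers of other lineages were low as well in the FB libraries, in which *Adamdec1* was high. Over the 21 FB libraries the summed levels were 1.05 to 15.2 CPM for 5 lymphocyte and plasma cell genes (led by *Jchain*), 1.54 to 73.5 CPM for 6 epithelial genes (led by *Lgals4*, with *Krt8* at 0 throughout) and 32.5 to 68.1 CPM for 5 endothelial genes (led by *Pecam1*). The highest epithelial sum was that of replicate 1 of small intestinal Fgfr2+ FB, the library with the most *Adamdec1*, where *Lgals4* had 73.2 CPM and *Epcam* and *Vil1* were at 0 beside *Krt8* and *Krt20*; the other libraries of that population had 6.06 and 9.19 CPM, and its mean of 29.6 CPM was the highest among FB, where no other exceeded 11.2 CPM. The part of epithelial cells in its *Adamdec1* level was not tested. *Kit* and *Ano1*, markers of interstitial cells of Cajal, summed to 0.435 to 83.4 CPM, with the high end from *Ano1* in colonic PDGFRα hi FB. *Ano1* was higher in pericytes, where the sum reached 1045 CPM.

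Among the small intestinal FB populations, *Adamdec1* separated Fgfr2+ FB from the others. It was lower in CD34+ FB than in Fgfr2+ FB by a log2 fold change of -1.83 ± 0.16 (SE, n = 3 per population), and the 3 libraries of CD34+ FB lay below all 3 of Fgfr2+ FB. With edgeR's quasi-likelihood test and Benjamini-Hochberg adjustment the adjusted p was 0.000382, in a comparison that called 3.69% of the 15634 genes tested at an adjusted p below 0.05. Fgfr2+ FB also exceeded PDGFRα hi FB, by a log2 fold change of 2.04 ± 0.16 (SE, n = 3 per population), again without overlap of the libraries. There the same edgeR quasi-likelihood test, with Benjamini-Hochberg adjustment, gave an adjusted p of 4.38e-05, and 6.72% of genes were called. Ordered by p over all genes, *Adamdec1* was number 8 in the first of these comparisons and number 24 in the second.

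CD34+ FB and PDGFRα hi FB of the small intestine had overlapping levels of *Adamdec1*. Their log2 fold change was 0.21 ± 0.16 (SE, n = 3 per population) with an adjusted p of 0.655 in edgeR's quasi-likelihood test with Benjamini-Hochberg adjustment, where 6.51% of genes were called. Both calls against Fgfr2+ FB were lost when the spread was estimated from more populations: with the 21 FB libraries in 1 edgeR quasi-likelihood model the Benjamini-Hochberg adjusted p was 0.124 against CD34+ FB and 0.0653 against PDGFRα hi FB, and with all 30 libraries 0.185 and 0.0807. The fold changes in those models were -1.85 and 2.05, and -1.79 and 1.98. Over all alternatives run, edgeR and DESeq2, the Benjamini-Hochberg adjusted p ranged from 7.11e-19 to 0.185 against CD34+ FB and from 5.48e-24 to 0.0807 against PDGFRα hi FB. The 2 larger models share their spread with colonic CD81+ FB, whose *Adamdec1* values differed most between libraries.

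Genes of several marker lists, like *Adamdec1*, differed between these populations. Of the 9 smooth muscle genes, 5 were called lower in CD34+ FB than in Fgfr2+ FB (*Myh11*, *Des*, *Tagln*, *Acta2* and *Synpo2*) by edgeR's quasi-likelihood test with Benjamini-Hochberg adjustment, where 3.69% of all genes were called. Their summed levels were 293, 314 and 333 CPM in CD34+ FB against 1078, 1327 and 909 CPM in Fgfr2+ FB. In PDGFRα hi FB, with less *Adamdec1* than Fgfr2+ FB, the sum was larger, at 2820, 4238 and 2879 CPM and led by *Myh11*, and the genes were divided: 3 of the 9 were called lower in Fgfr2+ FB (*Myh11*, *Tagln* and *Acta2*) and 1 higher (*Lmod1*), beside 6.72% of all genes. In colonic Fgfr2+ FB they summed to 445, 428 and 642 CPM, and 4 of the 9 (*Myh11*, *Des*, *Tagln* and *Synpo2*) were called higher in small intestinal than in colonic Fgfr2+ FB, beside 3.09% of all genes. The part of SMC in the *Adamdec1* level of small intestinal Fgfr2+ FB was not tested.

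Fibroblast markers went the other way from *Adamdec1* between CD34+ FB and Fgfr2+ FB. Of the 9, 6 were called higher in CD34+ FB (*Dpt*, *Dcn*, *Lum*, *Col1a1*, *Col1a2* and *Col3a1*) by edgeR's quasi-likelihood test with Benjamini-Hochberg adjustment, where 3.69% of all genes were called. All 9 markers summed to 100500, 49199 and 71068 CPM in CD34+ FB against 21782, 18043 and 18574 CPM in Fgfr2+ FB, led by *Col1a1* in all 6 libraries. Of the 10 pericyte genes, 8 were tested, and *Rgs5* was called higher and *Kcnj8* lower in CD34+ FB. The list summed to 4120, 4399 and 3739 CPM in CD34+ FB and to 2451, 2268 and 2352 CPM in Fgfr2+ FB, led by *Rgs5* throughout, with *Cox4i2* at 0 in every CD34+ FB library. Between Fgfr2+ FB and PDGFRα hi FB both lists were divided by the same edgeR test, where 6.72% of all genes were called. Of the 8 pericyte genes tested, *Rgs5* and *Ndufa4l2* were called higher in Fgfr2+ FB and *Kcnj8* and *Abcc9* lower. Of the 9 fibroblast markers, *Dcn* and *Col3a1* were called higher there and *Pdgfra* lower. *Kit* was also called lower there. The part of these shifts in the *Adamdec1* differences was not tested.

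The 2 subsets sorted from both tissues allow *Adamdec1* to be compared between small intestine and colon. In PDGFRα hi FB the levels overlapped, with a log2 fold change of -0.14 ± 0.16 for small intestine over colon (SE, n = 3 per population). The edgeR quasi-likelihood test with Benjamini-Hochberg adjustment gave an adjusted p of 0.97. A call between tissues needed both an adjusted p under 0.05 and a log2 fold change beyond 1.5 in either direction, which 1.76% of the 15677 genes tested reached. In Fgfr2+ FB all 3 small intestinal libraries lay above all 3 colonic ones. The log2 fold change was 1.32 ± 0.16 (SE, n = 3 per population) and the edgeR quasi-likelihood test gave a Benjamini-Hochberg adjusted p of 0.000157. Of 9 pericyte genes tested, *Rgs5* was called higher in small intestinal Fgfr2+ FB by the same test, beside 3.09% of genes. The 10 pericyte genes summed to 2451, 2268 and 2352 CPM there, against 696, 837 and 1003 CPM in the colon. In PDGFRα hi FB, where *Adamdec1* overlapped, *Rgs5*, *Kcnj8*, *Abcc9* and *Cspg4* were called higher in small intestine, beside 1.76% of genes. The part of pericytes in the *Adamdec1* difference was not tested.

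Despite its adjusted p, *Adamdec1* was not called between the tissues in Fgfr2+ FB, where 3.09% of genes were, because its fold change is below the limit of 1.5. The tissue difference itself differed between the subsets: the interaction, which is the tissue difference in Fgfr2+ FB less that in PDGFRα hi FB, was 1.46 ± 0.22 on the log2 scale (SE, 12 libraries), and edgeR's quasi-likelihood test with Benjamini-Hochberg adjustment gave an adjusted p of 0.00236. That too falls just short of 1.5 and is not a call in a test that called 1.28% of genes. It passed 1.5 without replicate 1 of colonic Fgfr2+ FB (1.52), replicate 3 of colonic PDGFRα hi FB (1.54) or replicate 3 of small intestinal Fgfr2+ FB (1.55). In the models with more libraries it was 1.48 (21 FB libraries) and 1.39 (30 libraries), and the edgeR quasi-likelihood, Benjamini-Hochberg adjusted p rose to 0.516 and 0.774. The tissue difference in Fgfr2+ FB had an adjusted p of 0.246 and 0.358 by the same edgeR test with Benjamini-Hochberg adjustment there, at fold changes of 1.33 and 1.29. Over all alternatives the adjusted p of the interaction ranged from 7.46e-05 (DESeq2) to 0.774 (edgeR), both with Benjamini-Hochberg adjustment.

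Within the colon, CD81+ FB had less *Adamdec1* than each of the other FB populations in all 3 libraries, but their own libraries differed widely and no difference was called. The log2 fold change was -2.36 ± 0.77 (SE, n = 3 per population) against CD90+ FB, -3.11 ± 0.79 against Fgfr2+ FB and -2.54 ± 0.77 against PDGFRα hi FB. The adjusted p values of edgeR's quasi-likelihood test with Benjamini-Hochberg adjustment were 0.167, 0.0555 and 0.0592. Over all 16101 genes tested these comparisons called 1.53%, 2.19% and 7.64%. The values 0.0555 and 0.0592 lie close to the threshold, and a p above it does not show that the levels were alike.

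These outcomes changed without replicate 1 of CD81+ FB. Then *Adamdec1* differed by -4.53 ± 0.54 from CD90+ FB, -5.28 ± 0.56 from Fgfr2+ FB and -4.71 ± 0.54 from PDGFRα hi FB (log2 fold change ± SE, 2 against 3 libraries). The Benjamini-Hochberg adjusted p in edgeR's quasi-likelihood test was then 0.000345, 0.000106 and 4.73e-05, and all 3 were calls. Over the fits that each left out 1 library, the adjusted p of that edgeR quasi-likelihood test (Benjamini-Hochberg) ranged up to 0.486, 0.135 and 0.154. The comparison with Fgfr2+ FB was also called without replicate 3 of CD81+ FB, at -2.60, where the same edgeR quasi-likelihood test with Benjamini-Hochberg adjustment gave an adjusted p of 0.0423. With all libraries kept, the comparisons with Fgfr2+ FB and PDGFRα hi FB became calls with no filter on low counts (-3.12 and -2.54), a stricter filter (-3.14 and -2.57), 21 FB libraries (-3.10 and -2.53) and 30 libraries in 1 model (-3.15 and -2.56), and that with CD90+ FB with no filter (-2.37). Over the alternatives run, with edgeR's quasi-likelihood test and Benjamini-Hochberg adjustment, the adjusted p ranged from 0.0216 to 0.43 against CD90+ FB, 0.00181 to 0.198 against Fgfr2+ FB and 0.00405 to 0.183 against PDGFRα hi FB.

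The markers of the CD81+ FB libraries were read next to their *Adamdec1*. *Fgfr2*, the marker of the colonic population with most *Adamdec1*, had 259, 179 and 51.6 CPM, and *Thy1*, which encodes CD90, had 124, 115 and 59.4 CPM in replicates 1 to 3. *Cd81* had 401, 445 and 278 CPM and *Cd34* 1340, 1047 and 843 CPM. Replicate 1 thus had the most *Fgfr2*, *Thy1* and *Cd34* and replicate 3 the least of all 4 genes.

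The 9 fibroblast markers were present in all 3 CD81+ FB libraries, with sums of 82182, 57085 and 72994 CPM led by *Col1a1* or *Dcn*. The 9 smooth muscle genes summed to 370, 173 and 135 CPM, and in replicate 1 they were led by *Lmod1* (146 CPM, against 0.0615 and 1.70 in the others). The 10 pericyte genes summed to 483, 340 and 293 CPM, led by *Pdgfrb*. The 7 sorting and subset markers summed to 3179, 2892 and 1977 CPM. The 6 epithelial genes summed to 25.7, 1.54 and 6.27 CPM, led by *Lgals4* in each library. EdgeR's quasi-likelihood test (Benjamini-Hochberg) called 6 of the 9 smooth muscle genes lower in CD81+ FB than in colonic PDGFRα hi FB. The pericyte gene *Cspg4* was also called lower there. Against colonic Fgfr2+ FB, *Actg2*, *Acta2*, *Rgs5* and *Cspg4* were called lower, and against CD90+ FB *Acta2* and *Rgs5*. No gene of either list was called higher. These comparisons called 7.64%, 2.19% and 1.53% of all genes. The part of other cells in the *Adamdec1* level of replicate 1 or in the CD81+ FB differences was not tested.

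The other colonic FB populations were not told apart by *Adamdec1*. CD90+ FB against Fgfr2+ FB had a log2 fold change of -0.75 ± 0.73 (SE, n = 3 per population) and an adjusted p of 1 in edgeR's quasi-likelihood test with Benjamini-Hochberg adjustment. This comparison called 0% of genes: edgeR's quasi-likelihood test found 0 at an adjusted p below 0.05 and 739 at an unadjusted p below 0.05, and DESeq2 called 30. CD90+ FB against PDGFRα hi FB gave -0.19 ± 0.73 (SE, n = 3 per population) with an edgeR quasi-likelihood, Benjamini-Hochberg adjusted p of 0.997, in a comparison calling 2.91% of genes. Its sign depended on single libraries: the value was 0.08 without replicate 1 and 0.01 without replicate 3 of CD90+ FB. Without replicate 2, the library of CD90+ FB with the most *Adamdec1*, the log2 fold change was -0.85 against PDGFRα hi FB and -1.41 against Fgfr2+ FB, and that of CD81+ FB against CD90+ FB was -1.70, none of them a call by edgeR's quasi-likelihood test.

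Colonic Fgfr2+ FB against PDGFRα hi FB gave 0.57 ± 0.73 for *Adamdec1* (log2 fold change ± SE, n = 3 per population) and edgeR's quasi-likelihood test with Benjamini-Hochberg adjustment an adjusted p of 0.892, with 2.54% of genes called. All 3 libraries of Fgfr2+ FB lay above all 3 of PDGFRα hi FB. The SE of these comparisons includes the spread of CD81+ FB, because the 4 colonic populations were fitted together. In an alternative added after the data had been seen, which left out replicate 1 of CD81+ FB, the SE fell to 0.39 and the fold changes were -0.76, -0.19 and 0.57, with Benjamini-Hochberg adjusted p of 0.791, 0.937 and 0.583 by edgeR's quasi-likelihood test. A planned fit of only Fgfr2+ FB and PDGFRα hi FB gave 0.58 ± 0.16 (SE, n = 3 per population) with a Benjamini-Hochberg adjusted p of 0.0741 by that edgeR quasi-likelihood test, still not a call.

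**Figure D3:**
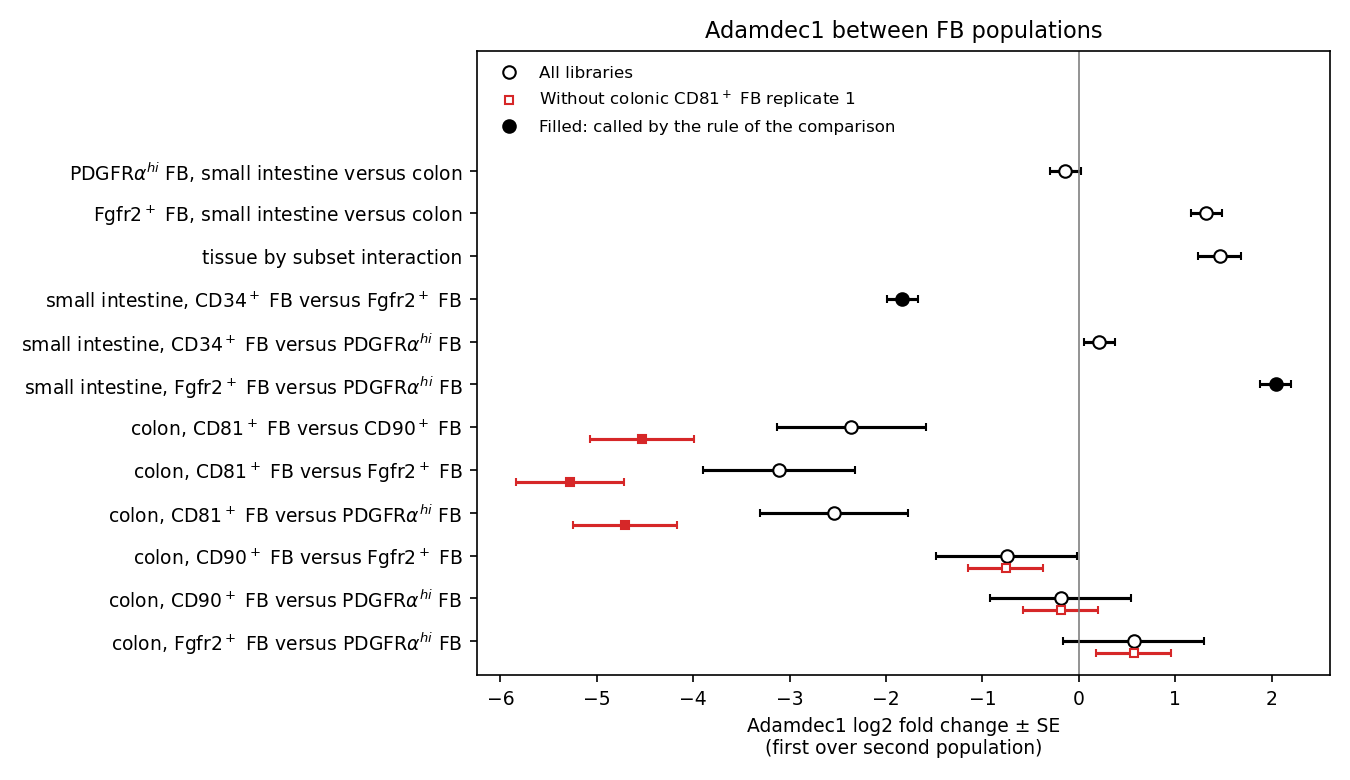
Log2 fold change of *Adamdec1* with its SE in the 12 comparisons among FB populations, first population over second; filled symbols are calls, and red squares leave out replicate 1 of colonic CD81+ FB. The filled black symbols are the 2 comparisons of small intestinal Fgfr2+ FB with the other small intestinal FB (-1.83 and 2.04), and the 3 comparisons of CD81+ FB move from between -3.11 and -2.36 to between -5.28 and -4.53.

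*Adamdec1* was set against its family, the 33 genes with the symbol *Adam* and a number, of which 13 had a mean of at least 10 CPM in some population. Per length, none of the 33 exceeded *Adamdec1* in SMC or in any library of the FB populations other than colonic CD81+ FB. In small intestinal Fgfr2+ FB *Adamdec1* had a mean of 11136 TPM against 168 TPM for the next gene, *Adam19*, a ratio of 66.4, and in SMC the ratio to *Adam19* was 55.5. *Adam19* encodes a membrane-anchored protease that processes neuregulins. The ratio on the TPM scale was 26.8 in small intestinal CD34+ FB (to *Adam15*), 17.7 in colonic Fgfr2+ FB (to *Adam19*) and 13.5 in colonic CD90+ FB (to *Adam23*).

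*Adamdec1* led by less in PDGFRα hi FB, where *Adam19* was itself abundant: the TPM ratio was 6.32 in the colon and 3.65 in the small intestine, where *Adam19* reached 655 TPM. In colonic CD81+ FB the ratio to *Adam15* was 3.92 with all libraries, a lead that came from replicate 1. Without that library *Adamdec1* had a mean of 78.1 TPM and *Adam15* 109 TPM, a ratio of 0.717, and 1 family member exceeded *Adamdec1* in replicate 2 and 2 in replicate 3. In pericytes *Adamdec1* no longer led. On the TPM scale its mean was at 0.965 of that of *Adam19* in the small intestine (30.7 against 31.8 TPM), closer than its own libraries were to each other (31.5, 14.1 and 46.3 TPM). In the colon it was at 0.315 of *Adam10*, which encodes a widely expressed sheddase, and 6 family members exceeded it.

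Family members called between Fgfr2+ FB and PDGFRα hi FB of the small intestine went the other way from *Adamdec1*. In that tissue 16 of the 33 passed the count filter, and against PDGFRα hi FB 4 were called lower in Fgfr2+ FB (*Adam9*, *Adam11*, *Adam12* and *Adam19*), while *Adamdec1* was higher there, in a comparison that called 6.72% of all genes. None was called higher by edgeR's quasi-likelihood test, 1 was at an unadjusted p below 0.05 and 1 by DESeq2. The call of *Adam19* held in every fit run, and those of the other 3 did not. *Adam19* had 871, 532 and 717 CPM in Fgfr2+ FB and 3761, 3747 and 2902 CPM in PDGFRα hi FB, with no overlap and a log2 fold change of -2.30 ± 0.28 (SE, n = 3 per population; edgeR quasi-likelihood, Benjamini-Hochberg adjusted p 0.000519). Between CD34+ FB and Fgfr2+ FB, where *Adamdec1* was called, 0 of the 16 family members were by edgeR's quasi-likelihood test, 5 were at an unadjusted p below 0.05, and DESeq2 called 1. Over all 15634 genes 3.69% were called there and 3093 were at an unadjusted p below 0.05.

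Between the tissues, *Adam23*, which encodes a family member without protease activity, was the gene with the clearest difference. Its levels in Fgfr2+ FB were 21.1, 3.95 and 9.19 CPM for the small intestine against 607, 568 and 519 CPM for the colon, a log2 fold change of -5.58 ± 0.49 (SE, n = 3 per population; edgeR quasi-likelihood, Benjamini-Hochberg adjusted p 1.26e-05). *Adamdec1* had the opposite direction, higher in the small intestine. In all, 1 of the 16 tested family members was called higher (*Adam12*) and 1 lower (*Adam23*) in small intestinal Fgfr2+ FB, and 2 higher (*Adam11* and *Adam12*) and 1 lower (*Adam23*) in small intestinal PDGFRα hi FB, beside 3.09% and 1.76% of all genes. The calls of *Adam11* and *Adam12* were lost in several of the alternatives, those of *Adam23* in none of those run.

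In the colon 18 family members passed the filter, and in the 3 comparisons of CD81+ FB, against CD90+ FB, then Fgfr2+ FB, then PDGFRα hi FB, edgeR's quasi-likelihood test called 0, 0 and 1 of them higher and 1, 2 and 2 lower, where 1.53%, 2.19% and 7.64% of all genes were called. At an unadjusted p below 0.05, 3, 5 and 5 were higher, and DESeq2 called 0, 2 and 4 higher. *Adam23* had 131, 88.2 and 65.7 CPM in CD81+ FB and 521, 640 and 631 CPM in CD90+ FB, a log2 fold change of -2.64 ± 0.28 (SE, n = 3 per population; edgeR quasi-likelihood, Benjamini-Hochberg adjusted p 0.000339). Like *Adamdec1* it was lower in all 3 CD81+ FB libraries, but without the high value in replicate 1 that *Adamdec1* had.

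Inhibitors of metalloproteases were the last group of the family's biology to be measured: *Timp1* to *Timp4*, secreted inhibitors of matrix metalloproteases and some ADAM proteases, and *Reck*, a membrane-bound one. The 5 genes summed to a mean of 827 ± 229 CPM (SD, n = 3) in small intestinal Fgfr2+ FB, where *Adamdec1* was highest, and this was the lowest sum of the 10 populations. The highest was 4280 ± 868 CPM (SD, n = 3) in small intestinal pericytes, which had little *Adamdec1*. *Timp3*, an inhibitor that binds to the matrix, accounted for most of this contrast.

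Levels of *Timp3* were 57.7, 161 and 65.8 CPM for Fgfr2+ FB of the small intestine, against 720, 936 and 1032 CPM for those of the colon. Small intestinal PDGFRα hi FB had 607, 441 and 441 CPM of *Timp3*, and CD34+ FB 580, 871 and 740 CPM. SMC, the population with the second highest *Adamdec1*, had 771, 609 and 1083 CPM. *Timp3* was thus low in the FB population with most *Adamdec1* but not in SMC. The log2 fold change of *Timp3* in Fgfr2+ FB, small intestine over colon, was -3.22 ± 0.36 (SE, n = 3 per population) with an adjusted p of 8.32e-05, and the interaction was -3.35 ± 0.48 (SE, 12 libraries) with an adjusted p of 0.00158, both by edgeR's quasi-likelihood test with Benjamini-Hochberg adjustment. *Adamdec1* had the opposite sign in both. Of the 5 inhibitors *Timp3* was the 1 called in each, beside 3.09% and 1.28% of all genes.

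Against the other small intestinal FB, *Timp3* was lower in Fgfr2+ FB than in PDGFRα hi FB (log2 fold change -2.39 ± 0.38, SE, n = 3 per population; edgeR quasi-likelihood, Benjamini-Hochberg adjusted p 0.0032), and CD34+ FB exceeded Fgfr2+ FB by 2.94 ± 0.39 (adjusted p 0.00231 by the same edgeR test and adjustment). *Timp2* and *Reck* were also called higher in CD34+ FB than in Fgfr2+ FB, so that 3 of the 5 were, beside 360 of 15634 genes, but these 2 calls were lost in several of the alternatives. Relative to *Adamdec1* the inhibitors ranged widely: on the TPM scale their sum had a mean of 291 in small intestinal Fgfr2+ FB against 11136 for *Adamdec1*, and 994 against 418 in colonic CD81+ FB (824 against 78.1 without replicate 1).

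The chromosomal neighbours of *Adamdec1* did not share its abundance. Annotated protein-coding genes within 500 kb were *Adam28* (23.9 kb away) and *Adam7* (29.6 kb), which belong to the same family, the neurofilament genes *Nefm* and *Nefl*, and *Stc1*, which encodes the hormone stanniocalcin. *Adam28* had a mean of 1.75 to 6.59 CPM in the 10 populations and *Adam7* at most 0.0890 CPM. *Stc1* was the 1 neighbour to reach 10 CPM, with its highest mean of 61.5 CPM in SMC. Over the 30 libraries, which share tissues and populations, the Pearson correlation of log2 CPM with *Adamdec1* was 0.07 for *Adam28*, 0.08 for *Adam7*, 0.02 for *Nefm*, -0.39 for *Nefl* and 0.18 for *Stc1*. Within the 21 FB libraries it was 0.02, 0.12, -0.55, 0.11 and 0.43 in the same order, with *Adam28*, *Adam7*, *Nefm* and *Nefl* below 10 CPM in the mean of every population.

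The 10 genes most like *Adamdec1* over all populations were taken by the Pearson correlation of log2 CPM over the 30 libraries, among 9755 other genes with a mean of at least 10 CPM. They were *Aldh1a2* (0.94), *Ereg* (0.94), *Scube1* (0.91), *Fgfr2* (0.90), *Dchs1* (0.90), *Arhgap28* (0.89), *Pla2g4a* (0.89), *Tenm3* (0.88), *Ptger2* (0.88) and *Pcdh7* (0.88), against a median of 0.08 over all genes compared. The 30 points are not independent, since 3 libraries share each population, and the low pericyte libraries weigh heavily. *Aldh1a2* encodes an enzyme that makes retinoic acid, *Ereg* the EGF receptor ligand epiregulin, *Fgfr2* a receptor for fibroblast growth factors and *Ptger2* a receptor for prostaglandin E.

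*Aldh1a2* had means of 641 CPM in Fgfr2+ FB of the small intestine and 614 CPM in SMC, the 2 populations richest in *Adamdec1*, but its means were 6.88 CPM in pericytes of the small intestine and 0.793 CPM in those of the colon. *Ereg* had its highest means in the same 2 populations and in colonic PDGFRα hi FB (180, 174 and 172 CPM) and was below 1 CPM in both pericyte populations. Like *Adamdec1*, both genes were lowest among FB in colonic CD81+ FB, with 74.0 and 19.8 CPM.

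Within the 21 FB libraries, where pericytes no longer weigh, the 10 genes most like *Adamdec1* among 9433 were *Ptger2* (0.90), *Scube1* (0.90), *Kitl* (0.89), *Il1r1* (0.89), *Cdk6* (0.87), *Fgd6* (0.87), *Fat4* (0.87), *Hcar1* (0.87), *Tmem176b* (0.85) and *Col6a5* (0.85), with a median of -0.02 over all genes compared. *Ptger2* and *Scube1* were in both sets. The very low CD81+ FB libraries weigh on these values, and both sets depended on the measure: by Spearman correlation 1 of the first 10 and 3 of the second 10 were again among the 10 most alike, with *Kitl* at place 22, *Il1r1* at 19 and *Cdk6* at 103 within FB and *Tenm3* at 307 over all 30 libraries. *Kitl*, which encodes stem cell factor, had a mean of 174 CPM in Fgfr2+ FB of the small intestine but 15.4 CPM in colonic CD81+ FB, and unlike *Adamdec1* it was also abundant in pericytes, at 121 CPM (small intestine) and 154 CPM (colon). *Il1r1*, the receptor for interleukin-1, likewise had 378 CPM in small intestinal Fgfr2+ FB, 47.9 CPM in CD81+ FB and 105 CPM in colonic pericytes. *Col6a5*, a collagen VI chain, ran from 1072 CPM in small intestinal Fgfr2+ FB to 0.457 CPM in colonic CD81+ FB. These genes were chosen by their likeness to *Adamdec1* over the same libraries, so their levels in FB describe that choice.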

How the data were processed

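Bulk RNA-seq of 10 sorted populations, 3 libraries each, was analysed from the deposited tables. Per the submitters' processing notes, reads were trimmed with Trim Galore 0.4.0, checked with FastQC 0.11.2 and quantified with kallisto 0.42.5 (builds mm10 and GRCm38). The authors deposited for each of 98492 transcripts an estimated count, which is not normalised and need not be whole. The authors also deposited TPM, that count per effective length scaled to the same total in each library; a single transcript held 14.8% to 55.9% of a library's TPM.

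Here 97204 transcripts were matched to 32386 genes of GENCODE M21 by Ensembl identifier, summed by symbol and rounded, which kept 97.83% to 99.21% of the counts. Of a library's TPM, 43.9% to 88.2% fell on these genes. Tests used edgeR 4.0.16 (R 4.3.3) with TMM and the quasi-likelihood test, on genes that reached 6 counts in 3 or more libraries of the fit, and Benjamini-Hochberg adjustment over all genes. The tissue comparisons and their interaction were fitted on 12 libraries, the small intestinal FB on 9 and the colonic FB on 12. Calls needed an adjusted p below 0.05 and, between tissues, an absolute log2 fold change above 1.5. SE is the fold change divided by the root of the F statistic, and log2 CPM used a prior count of 2. The fits were tested on simulated data.

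Genes named were *Adamdec1*, ADAM genes and inhibitors with a mean of at least 10 CPM in 1 population, protein-coding neighbours within 500 kb, the 10 genes most alike over 30 and over 21 libraries, genes above *Adamdec1* where its rank was best, and marker lists. Members and lists were chosen with earlier results of these data known. Alternatives were RLE size factors, no filter or a stricter one (10 counts in every library of 1 population), DESeq2 1.42.0, length-scaled TPM counts, the replicate number as a block, other sets of libraries, the other call rule, and each library left out in turn.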

Additional observations from a re-analysis of the deposited data

Results flagged for a closer look

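The difference in *Adamdec1* between small intestine and colon was not the same in the 2 FB subsets sorted from both tissues. In Fgfr2+ FB it was 1.32 and in PDGFRα hi FB -0.14 on the log2 scale, and the test of the difference between them gave 1.46 ± 0.22 (SE, 12 libraries) where edgeR's quasi-likelihood test with Benjamini-Hochberg adjustment gave an adjusted p of 0.00236, at a fold change just under the limit of 1.5 used for calls. With all 30 libraries in 1 model the edgeR quasi-likelihood, Benjamini-Hochberg adjusted p was 0.774, at a value of 1.39 that was positive as in the other fits run.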

How the results depend on the processing

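*Adamdec1* kept its direction and its side of the threshold in 96 of 113 alternative fits of the 12 comparisons and in 72 of 81 fits without 1 library. Of the small intestinal calls, that of CD34+ FB against Fgfr2+ FB was lost with all 30 libraries in 1 model (-1.79) and with the 21 FB libraries (-1.85), and that of Fgfr2+ FB against PDGFRα hi FB likewise (1.98 and 2.05). Colonic CD81+ FB became a call against Fgfr2+ FB and PDGFRα hi FB with no filter (-3.12 and -2.54), the stricter filter (-3.14 and -2.57), 30 libraries (-3.15 and -2.56) and 21 libraries (-3.10 and -2.53), and against CD90+ FB with no filter (-2.37). By adjusted p alone the tissue difference in Fgfr2+ FB (1.32) and the interaction (1.46) were calls. The cause of these changes was not tested. DESeq2 gave no adjusted p for *Adamdec1* in the 6 colonic comparisons. The transcript share and the most abundant transcript alone were not run, because the gene has 1 transcript.

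Replicate numbers were not taken to pair the libraries, because the deviations of same-numbered libraries had a mean correlation of 0.0152 and not every pair was over 0.1. In small intestinal FB the mean was 0.079 (0.0329 to 0.179, and -0.0401 for other numbers). All 9 of these libraries correlated best with their own number, against 6 of 12 in colonic FB. Over all FB it was 13 of 21 libraries and over all populations 23 of 30, a hint of pairing from the data and not the design. With the number as a block CD81+ FB became a call against Fgfr2+ FB (-3.63) and PDGFRα hi FB (-3.04). The block left the other *Adamdec1* calls as they were and moved no count of genes called by over 1.5 times.

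Leaving out 1 library gave -4.53 to -1.70 for CD81+ FB against CD90+ FB, -5.28 to -2.60 against Fgfr2+ FB and -4.71 to -2.02 against PDGFRα hi FB, the lowest values, all calls, being those without CD81+ FB replicate 1. Without CD81+ FB replicate 3 the value against Fgfr2+ FB was a call as well, at -2.60. The interaction ranged from 1.33 to 1.55 and passed 1.5 without colonic Fgfr2+ FB replicate 1 (1.52), colonic PDGFRα hi FB replicate 3 (1.54) or small intestinal Fgfr2+ FB replicate 3 (1.55). CD90+ FB against PDGFRα hi FB ranged from -0.85 to 0.08 and turned positive without CD90+ FB replicate 1 (0.08) or replicate 3 (0.01).

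The mean level moved by less than its SD in every alternative except small intestinal PDGFRα hi FB without TMM (5063 against 4748 CPM). Of the 10 genes most like *Adamdec1*, a Spearman correlation shared 1 over 30 and 3 over 21 libraries, and TPM 7 and 6. Genes called numbered 0 to 1230 per comparison, 30 to 2092 with DESeq2 (30 against 0 for colonic CD90+ FB against Fgfr2+ FB), 0 to 758 with 30 libraries and 2 to 1926 with only the 2 populations. Of 35 calls of ADAM or inhibitor genes, 16 held in every fit run.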
